A study of Mus musculus with 8 samples.

Results

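The 10 genes described here encode the enzymes that make serine from glycolysis and the enzymes that carry its one-carbon units on folate. They were taken by symbol from a table of RNA sequencing counts for 23366 gene symbols, each gene by its transcript with the most counts over the libraries used. All 10 were found, and all 10 passed the filter on low counts. Phgdh, Psat1, Psph, Shmt1 and Mthfd1 encode 5 cytosolic enzymes, and Shmt2, Mthfd1l, Mthfd2, Mthfd2l and Aldh1l2 encode 5 mitochondrial ones. RNA came from MEFs (mouse embryonic fibroblasts, cultured connective tissue cells) of the C57BL/6 strain at passages 3 to 5. The 8 libraries formed 4 groups of 2: wild-type (WT) and kdm3a KO cells, each sampled fed at 0 h or after 12 h of glucose starvation. Fed cells were in DMEM with 10% fetal bovine serum. Starved cells were rinsed in PBS and held in DMEM without glucose but with 10% dialyzed serum, so loss of glucose cannot be told apart from the new medium, the dialyzed serum and the hours in it. "Starved" below means all of these. The labels give neither how the knockout was made nor whether replicates came from separate cultures, so the spread behind each p-value may be purely technical.

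Serine is built from the glycolytic intermediate 3-phosphoglycerate in a chain of reactions by Phgdh, Psat1 and Psph. Serine hydroxymethyltransferase then splits serine into glycine and a one-carbon unit on tetrahydrofolate, with Shmt1 in the cytosol and Shmt2 in the mitochondria. The mitochondrial enzymes oxidise that unit to formate, which leaves for the cytosol and is put back on folate there by Mthfd1 for the synthesis of purines, thymidylate and methionine. In many mammalian cells several of these genes are known targets of the stress transcription factor ATF4.

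The libraries held 38407526 to 53602297 counts, with 1 transcript taken per gene. Kdm3a, a histone H3K9 demethylase gene and the target of the knockout, had 56.1 and 56.4 CPM (counts scaled to CPM by edgeR's TMM method) in fed WT, and fed libraries labelled KO had 55.2 and 55.4 CPM. Starved libraries read 176 and 185 CPM for WT but 65.4 and 66.7 CPM for those labelled KO. The loss that the label names is not seen in the fed values, though counts over a whole transcript cannot show a lost exon. These libraries are therefore called KO-labelled. The X-inactivation RNA Xist stood at 0.939 to 1.54 CPM in WT and 869 to 1370 CPM in KO-labelled libraries, so genotype and sex of the cells cannot be told apart in any comparison between labels. Of 12 fibroblast markers, 9 or 10 stood above 10 CPM in each group, with a summed level of 19892 to 21017 CPM in WT and 10922 to 13265 CPM in KO-labelled libraries. Single markers moved in opposite directions within that sum. In WT, Col1a1 had 4752 and 4572 CPM fed and 240.4 and 255 CPM starved, and Vim had 4399.9 and 4395 CPM fed and 11396 and 11321 CPM starved. Lum was at 0 in both starved WT libraries. Single markers also differed in both directions between the fed groups. Col1a2 had 6200 and 6020 CPM in fed WT and 267 and 261 CPM in fed KO-labelled libraries. Dcn had 2.57 and 2.25 CPM in fed WT and 52.2 and 50.6 CPM in fed KO-labelled libraries. The 9 macrophage and blood markers summed to between 7.001 and 54.6 CPM, with Ptprc, Emr1 and Tyrobp at 0 counts in each library. The highest sums were in starved KO-labelled libraries and were mostly Cd68, at 40.9 and 40.7 CPM there and 1.96 to 3.94 CPM elsewhere. Csf1r was at 6.03 and 6.42 CPM there and 0.398 to 1.82 CPM elsewhere. Cd14 went the other way, at 16.0 to 17.9 CPM in fed and 2.70 to 6.69 CPM in starved libraries. The 6 endothelial markers summed to 2.29 to 54.9 CPM, nearly all of it Kdr in starved WT, with Tie1 and Emcn at 0. The 6 epithelial markers summed to 21.4 to 25.5 CPM in WT, mostly Krt19, and to 2.01 to 4.35 CPM in KO-labelled libraries. The part of these differences in the results below was not tested. In bulk RNA, fewer cells of a type and less RNA per cell cannot be told apart.

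Promoter windows from RefSeq on the GRCm38.p6 assembly, from 250 bases before to 50 bases after the annotated start, were matched by symbol for 9 of the 10 genes, Psat1 with a pair of starts. The submitters' processing notes list the mm9 build for the counts, so these coordinates apply to the windows alone. The windows shown belong to 2 pairs of enzymes that catalyse like reactions: Mthfd2 and Mthfd2l, whose RNAs moved in opposite directions on starvation, and Shmt1 and Shmt2, which moved in the same direction. They lie at chr6:83317555-83317854 (minus strand) for Mthfd2, chr5:90930946-90931245 (plus strand) for Mthfd2l, chr11:60811216-60811515 (minus strand) for Shmt1 and chr10:127522395-127522694 (minus strand) for Shmt2. Sequences read 5′ to 3′ on the gene's strand, and capitals mark the CCAAT box or its reverse complement.
Mthfd2: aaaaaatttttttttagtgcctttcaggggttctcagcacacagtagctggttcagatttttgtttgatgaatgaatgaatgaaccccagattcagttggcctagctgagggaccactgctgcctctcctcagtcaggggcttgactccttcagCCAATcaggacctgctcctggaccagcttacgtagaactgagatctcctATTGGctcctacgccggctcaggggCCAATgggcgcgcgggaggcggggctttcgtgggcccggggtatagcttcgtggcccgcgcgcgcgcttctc
Mthfd2l: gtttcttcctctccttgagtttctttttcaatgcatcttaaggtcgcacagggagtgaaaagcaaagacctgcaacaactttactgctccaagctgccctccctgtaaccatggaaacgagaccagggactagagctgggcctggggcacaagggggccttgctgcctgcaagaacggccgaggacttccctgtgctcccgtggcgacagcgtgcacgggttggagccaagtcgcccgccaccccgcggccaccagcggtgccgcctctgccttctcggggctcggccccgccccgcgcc
Shmt1: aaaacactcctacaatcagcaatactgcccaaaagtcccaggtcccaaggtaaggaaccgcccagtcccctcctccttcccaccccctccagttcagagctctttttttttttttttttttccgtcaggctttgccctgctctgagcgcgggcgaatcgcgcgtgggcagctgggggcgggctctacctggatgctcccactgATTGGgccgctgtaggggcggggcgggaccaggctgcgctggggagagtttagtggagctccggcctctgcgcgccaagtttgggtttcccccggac
Shmt2: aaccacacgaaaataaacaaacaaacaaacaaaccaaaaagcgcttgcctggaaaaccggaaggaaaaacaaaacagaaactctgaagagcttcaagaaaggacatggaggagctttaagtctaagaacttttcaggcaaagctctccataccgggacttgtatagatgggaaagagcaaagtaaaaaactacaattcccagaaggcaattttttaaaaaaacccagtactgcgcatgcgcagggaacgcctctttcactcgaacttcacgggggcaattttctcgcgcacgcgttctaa

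Matches to 4 motifs, chosen after the sequences were seen, were looked for on both strands. The CCAAT box (CCAAT) was in 6 of the 10 windows, against 37.4% of all 32851 promoter windows of this length. It occurred 3 times in Mthfd2 and in the first window of Psat1, 2 times in Phgdh and Psph, and 1 time in Shmt1 and Mthfd1. Neither the Mthfd2l nor the Shmt2 window held it. The core of the C/EBP-ATF element (TGATGNAA) was in none of the 10 windows, against 3.97% of all. The short cyclic AMP response motif (TGACGT) was in 2, Psph and Mthfd1l, against 7.51%, and the palindromic E-box CACGTG was in none, against 7.15%. No match overlapped another. These matches describe the letters of the windows only.

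Per transcript length, Phgdh, which commits 3-phosphoglycerate to serine, was the most abundant of the 10 RNAs in each group. In fed WT cells the order in CPM per kilobase was Phgdh at 152, Psat1 at 141, Shmt2 at 79.8, Mthfd2 at 35.6, Mthfd1 at 32.9, Mthfd1l at 25.1, Psph at 16.7, Aldh1l2 at 12.4, Mthfd2l at 10.1 and Shmt1 at 7.16 (means of 2 libraries). No neighbours in this order overlapped between libraries. In starved WT cells Phgdh stood at 533 CPM per kilobase, followed by Psat1 at 315 and Mthfd2 at 312, whose libraries overlapped, and by Shmt2 at 297. Mthfd1l, Aldh1l2 and Mthfd1 overlapped their neighbours at 66.9 to 68.9 CPM per kilobase, and Mthfd2l was last at 7.53. Fed KO-labelled cells had the same leading trio, with Mthfd1 above Mthfd2, Shmt1 above Aldh1l2, and Mthfd2l last at 3.35 CPM per kilobase. In starved KO-labelled cells Shmt2, at 278 CPM per kilobase, lay above Psat1 at 228, and only Mthfd1 and Mthfd1l overlapped as neighbours. Transcript lengths came from the GENCODE M21 annotation, matched by RefSeq identifier for all 10.

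The first comparisons asked how these RNAs differed after starvation in WT and in KO-labelled cells. In each, 9 of the 10 rose and Mthfd2l fell, by edgeR's quasi-likelihood test at a Benjamini-Hochberg adjusted p under 0.05 over 14418 genes. In WT, 36.7% of all genes tested were called higher and 44.8% lower (81.6% in all), and the 10 genes had a median log2 fold change of 1.85 against -0.17 for all genes. In KO-labelled cells 39.4% were called higher and 40.3% lower (79.7% in all), and the medians were 2.02 and -0.02. The cytosolic 5 had a median of 1.81 in WT and 2.00 in KO-labelled cells, and the mitochondrial 5 had medians of 1.89 and 2.41. The mitochondrial values were the more spread, from -0.43 to 3.13 in WT and from -0.82 to 3.73 in KO-labelled cells. With library totals as the scale, the all-gene median shifted by -0.46 in WT and by -0.26 in KO-labelled cells, and the same 9 rises and 1 fall remained called. With that scaling the share of called genes that were higher was 28.2% in WT, against 45% with TMM, and 37% against 49.4% in KO-labelled cells.

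**Figure D1:**
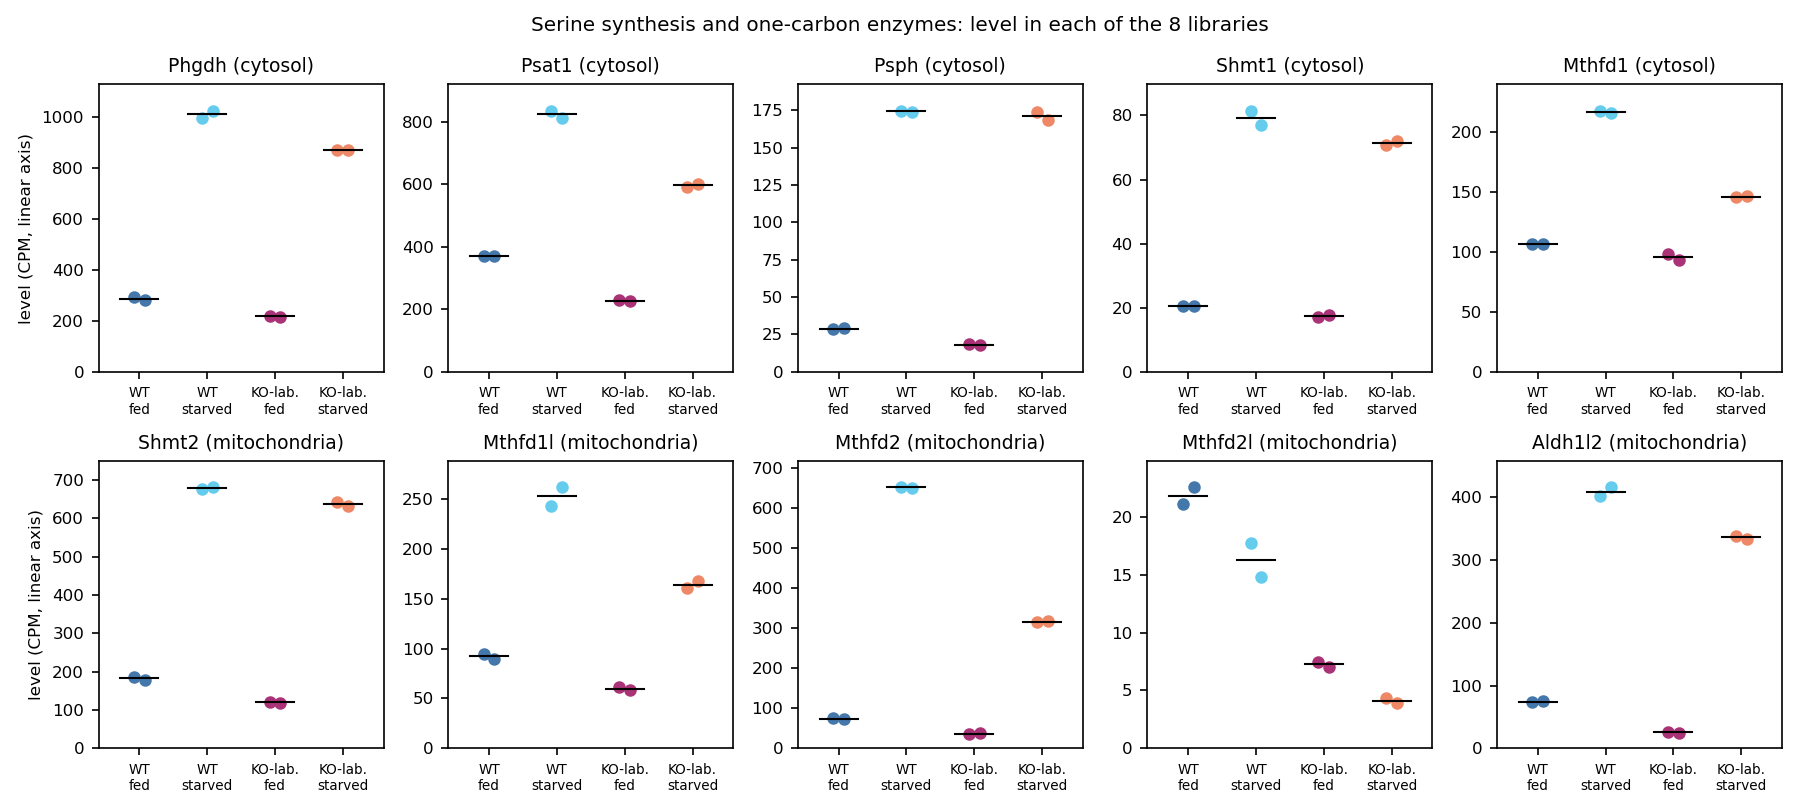
Level of each of the 10 RNAs in each library, in CPM on a linear axis from 0, by group. Points are libraries and black bars are means of 2. Of the 10 panels, Mthfd2l alone is lower in starved than in fed libraries, and Psph starts from 17.7 to 29.1 CPM when fed and reaches 169 to 175 CPM when starved in both genotypes.

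All 3 enzymes of serine synthesis rose in both genotypes. Phgdh, the first and committed step, was read at 292 and 282 CPM in fed WT and at 995 and 1024 CPM in starved WT. In KO-labelled libraries it stood at 220.5 and 213 CPM fed and at 868 and 869 CPM starved. Fed and starved libraries lay far apart in both genotypes, with log2 fold changes of 1.81 ± 0.029 in WT (SE; adjusted p = 2.37e-22) and 2.00 ± 0.029 in KO-labelled cells (adjusted p = 6.52e-23). Psat1, the aminotransferase that follows, was at 369.6 and 371 CPM in fed WT and at 835 and 812 CPM in starved WT. Its KO-labelled libraries were at 229.9 and 225 CPM fed and at 592 and 602 CPM starved. This was the smallest rise of the 3, 1.15 ± 0.028 in WT and 1.39 ± 0.028 in KO-labelled cells. Psph, the phosphatase that releases free serine, was the least abundant of the 3 and rose most. It went from 28.7 and 29.1 CPM to 175 and 174 CPM in WT, a log2 fold change of 2.59 ± 0.044. In KO-labelled libraries Psph went from 18.9 and 17.7 CPM to 174 and 169 CPM, 3.23 ± 0.045, so that its starved libraries overlapped those of WT. The annotated span of Psph overlaps that of Cct6a, a chaperonin gene with 13874 to 21333 counts per library, over 88 bases on GRCm38. The span of Shmt2 overlaps that of Ndufa4l2, with 0 to 8 counts per library, over 32 bases. Those of Mthfd1, Mthfd1l, Mthfd2l and Aldh1l2 overlap genes without counts here, in Aldh1l2 the noncoding RNA gene Gm51778 over 26390 bases. The strand setting of the counting is not given in the sources used here.

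The serine hydroxymethyltransferases rose by like amounts in WT. Shmt1, the cytosolic form, was read at 20.5 and 20.4 CPM in fed WT and at 81.5 and 77.1 CPM in starved WT, 1.95 ± 0.054. Shmt2, the mitochondrial form and the more abundant in each library, was at 186 and 179 CPM fed and at 677 and 681 CPM starved, 1.89 ± 0.030. In KO-labelled cells the forms moved apart. Shmt1 went from 17.2 and 17.7 CPM to 70.7 and 72.2 CPM, 2.03 ± 0.052. Shmt2 went from 122 and 118 CPM to 643 and 631 CPM, 2.41 ± 0.031.

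Among the folate enzymes the mitochondrial Mthfd2 rose most in WT and the cytosolic Mthfd1 least of the 9 that rose. Mthfd2, the mitochondrial dehydrogenase and cyclohydrolase that is high in embryonic and dividing cells, was at 74.7 and 73.9 CPM in fed WT and at 652 and 651 CPM in starved WT. In KO-labelled libraries it stood at 35.1 and 37.0 CPM fed and at 314 and 316 CPM starved. The log2 fold change was 3.13 in both, with an SE of 0.034 in WT and 0.035 in KO-labelled cells, an 8.76-fold rise in each. Mthfd2l, its mitochondrial homologue, was the exception of the 10. It was read at 21.1 and 22.6 CPM in fed WT and at 17.7 and 14.8 CPM in starved WT, a change of -0.43 ± 0.10 (adjusted p = 0.000582). Without the second starved WT library the change was -0.22 (adjusted p = 0.0752) and the call was lost. In KO-labelled cells Mthfd2l was at 7.49 and 6.998 CPM fed and at 4.35 and 3.91 CPM starved, -0.82 ± 0.12 (adjusted p = 3.27e-06). Mthfd2l had 196 to 943 counts per library.

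Mthfd1l, which releases formate in the mitochondria, was at 94.9 and 89.4 CPM in fed WT and at 243 and 262 CPM in starved WT, 1.46 ± 0.044. Its KO-labelled libraries were at 61.4 and 58.0 CPM fed and at 161 and 167 CPM starved, also 1.46 ± 0.044. Mthfd1, the cytosolic enzyme that joins the activities of the mitochondrial ones in 1 protein, rose from 107 and 106 CPM to 218 and 216 CPM in WT, 1.02 ± 0.036. In KO-labelled cells Mthfd1 went from 98.1 and 93.3 CPM to 146 and 147 CPM, 0.61 ± 0.036, the smallest rise of any of the 9. Aldh1l2, the mitochondrial formyl-folate dehydrogenase that burns one-carbon units to CO2 and yields NADPH, had the largest rise in KO-labelled cells. It went from 73.6 and 75.2 CPM to 402 and 416 CPM in WT, 2.46 ± 0.035. In KO-labelled libraries Aldh1l2 went from 25.6 and 24.9 CPM to 339 and 334 CPM, 3.73 ± 0.038, a 13.3-fold rise.

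**Figure D2:**
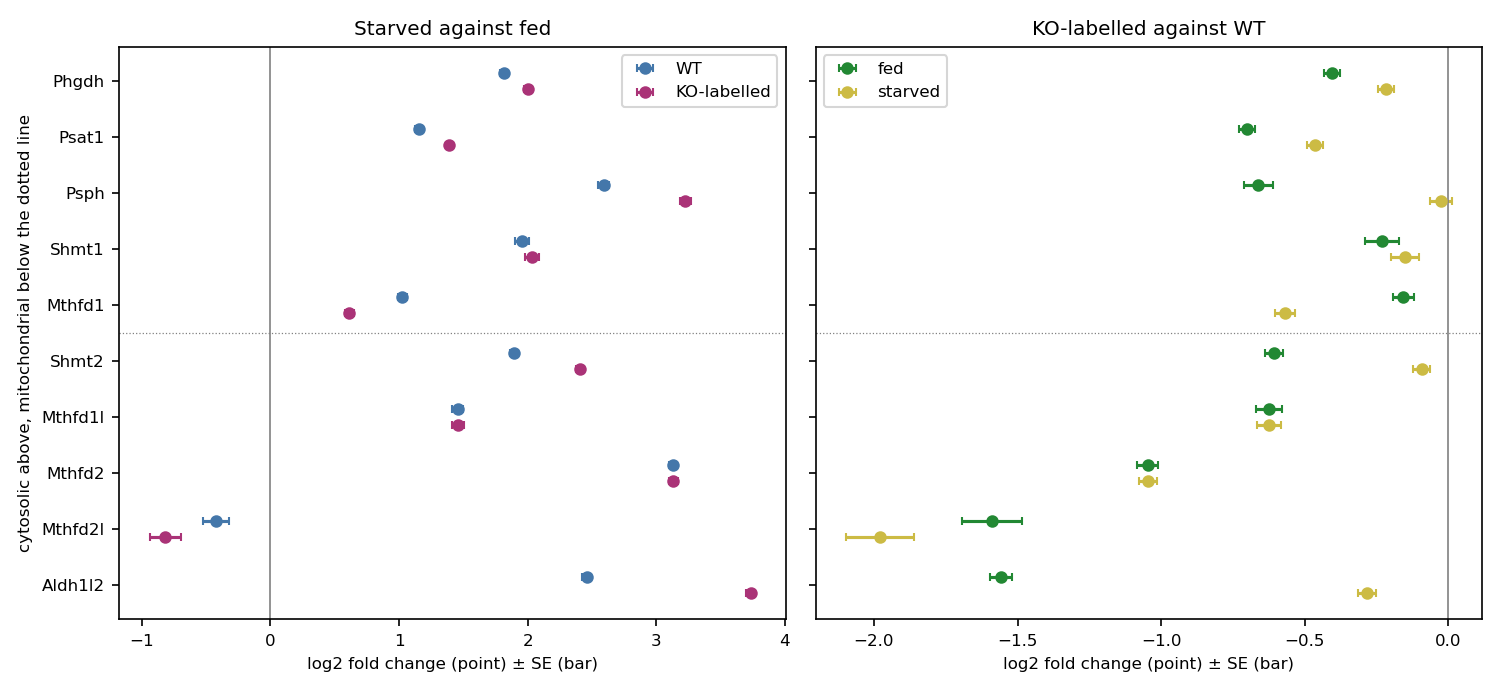
Log2 fold change of each gene with its SE, for starved against fed (left) and KO-labelled against WT (right), with cytosolic enzymes above and mitochondrial enzymes below the dotted line. On the left, 9 genes lie right of 0 in both genotypes and Mthfd2l lies left, at -0.43 and -0.82. On the right, all points lie left of 0, but scaled by library totals 5 of the starved points (Phgdh, Psph, Shmt1, Shmt2 and Aldh1l2) lie between 0.033 and 0.29.

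The ratio of counts of 2 genes within a library does not depend on how libraries are scaled, so it was used to set mitochondrial against cytosolic forms. With 2 libraries against 2, the two-sided exact permutation test cannot give a p below 0.333, and none of these comparisons could reach 0.05. The Shmt2:Shmt1 ratio was 9.09 and 8.77 in fed WT and 8.30 and 8.84 in starved WT, which overlapped (log2 change -0.06, exact permutation p = 0.667). In KO-labelled libraries it was 7.07 and 6.69 fed and 9.08 and 8.75 starved, with no overlap (0.37, exact permutation p = 0.333). Starved libraries of both genotypes thus held the 2 forms in overlapping proportions, and the fed KO-labelled libraries had the lowest Shmt2 share.

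The balance of the Mthfd enzymes moved further. The Mthfd2:Mthfd1 ratio was 0.699 and 0.695 in fed WT and 2.99 and 3.01 in starved WT, and 0.357 and 0.397 in fed and 2.16 and 2.16 in starved KO-labelled libraries. The log2 change on starvation was 2.11 in WT and 2.52 in KO-labelled cells, and no groups overlapped (exact permutation p = 0.333 each). Mthfd2 thus had fewer counts than Mthfd1 in each fed library and more in each starved library. The Mthfd1l:Mthfd1 ratio also crossed 1, from 0.888 and 0.840 to 1.12 and 1.21 in WT and from 0.626 and 0.622 to 1.103 and 1.141 in KO-labelled libraries. These were log2 changes of 0.43 and 0.85, and the starved libraries of both genotypes overlapped. Counts are not corrected for transcript length, so a ratio of 1 is not equal abundance. Per kilobase, Mthfd2 stood above Mthfd1 already in fed WT, at 35.6 against 32.9 CPM. In starved KO-labelled cells Mthfd1l did not stand above Mthfd1, at 44.7 against 45.1 CPM per kilobase. Within the mitochondria, the Mthfd2:Mthfd2l ratio went from 3.55 and 3.28 to 36.8 and 44.0 in WT and from 4.68 and 5.29 to 72.3 and 80.9 in KO-labelled libraries. That was the largest shift of the 4 ratios, at 3.56 and 3.94 on the log2 scale.

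**Figure D3:**
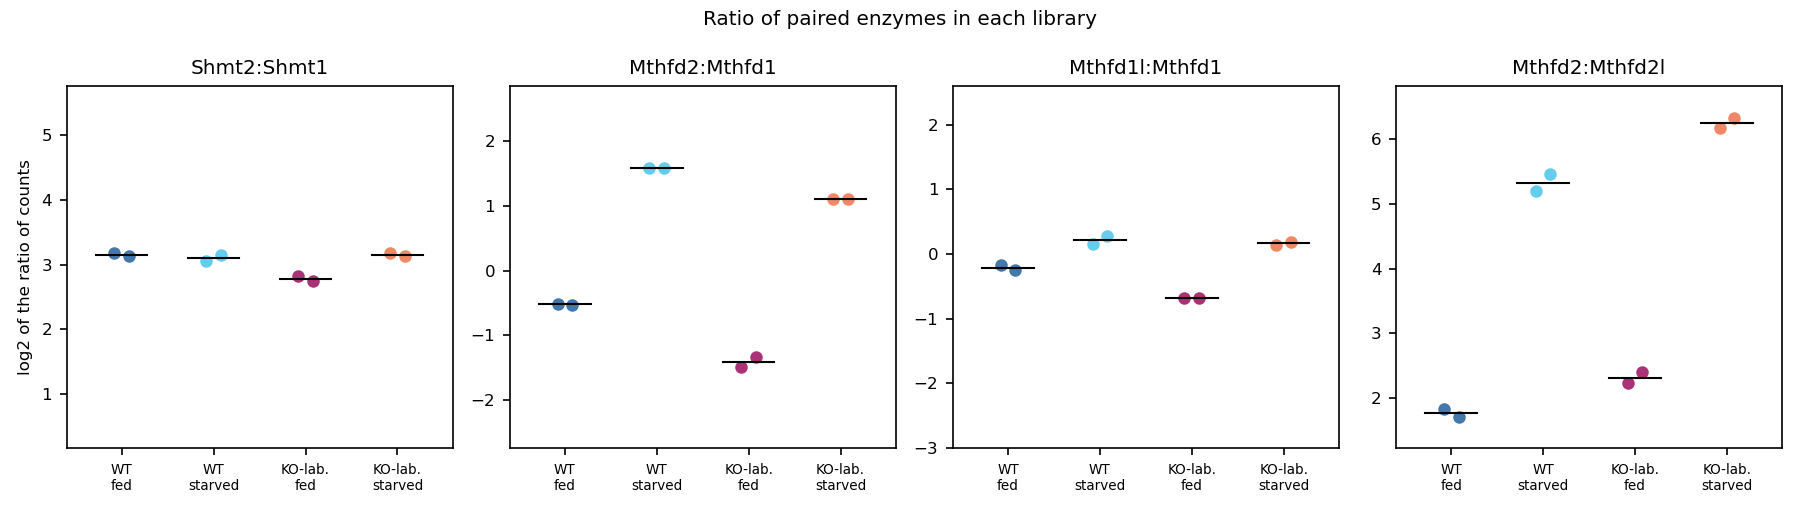
Log2 of the ratio of counts for 4 pairs of enzymes, by group, with axes of equal span but different centres. Points are libraries and black bars are means of 2. The Shmt2:Shmt1 ratio is lowest in the fed KO-labelled libraries, and the Mthfd2:Mthfd1 and Mthfd2:Mthfd2l ratios are higher in all starved than in all fed libraries.

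The next comparisons set KO-labelled against WT cells, a contrast in which genotype and sex go together. When fed, all 10 genes were lower in KO-labelled cells, where 39.8% of all genes tested were called lower and 34.5% higher (74.4% in all). The median log2 difference of the 10 was -0.64, against -0.06 for all genes. It was -0.40 over the cytosolic 5 and -1.05 over the mitochondrial 5. Mthfd2l (-1.59 ± 0.10), Aldh1l2 (-1.56 ± 0.039) and Mthfd2 (-1.05 ± 0.037), all mitochondrial, differed most. Psat1 (-0.70 ± 0.028), Psph (-0.66 ± 0.051), Mthfd1l (-0.62 ± 0.045) and Shmt2 (-0.61 ± 0.031) followed, and then Phgdh (-0.40 ± 0.029). Shmt1 (-0.23 ± 0.059) and Mthfd1 (-0.16 ± 0.036), the cytosolic folate enzymes, differed least. These 2 calls were lost with library totals, at -0.11 (adjusted p = 0.0916) and -0.04 (adjusted p = 0.332), where the all-gene median shifted by 0.12 and the share of higher calls was 55.1% against 46.4%.

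When starved, 9 of the 10 were lower in KO-labelled cells, where 37.7% of all genes tested were called lower and 41.9% higher (79.6% in all). The median log2 difference was -0.37, against 0.07 for all genes. The largest differences were again mitochondrial: Mthfd2l at -1.98 ± 0.12, Mthfd2 at -1.05 ± 0.030 and Mthfd1l at -0.62 ± 0.042. Mthfd1 at -0.57 ± 0.035 and Psat1 at -0.46 ± 0.027 were the cytosolic genes that differed most. For the other genes the direction turned on the scaling. Phgdh was at -0.22 ± 0.028 with TMM and 0.10 with library totals, Shmt1 at -0.15 ± 0.048 and 0.17, Shmt2 at -0.09 ± 0.029 and 0.22, and Aldh1l2 at -0.28 ± 0.031 and 0.033. The difference of Psph was -0.03 ± 0.038 with TMM (adjusted p = 0.546, 95% interval -0.10 to 0.05), and its libraries overlapped, whereas it was 0.29 with library totals. With library totals 4 of the 10 were called higher and 5 lower, the all-gene median shifted by 0.32, and the share of higher calls was 67.4% against 52.6%. The 5 genes that stayed lower were Psat1, Mthfd1, Mthfd1l, Mthfd2 and Mthfd2l. Small calls here also rested on single libraries. Shmt1 was at -0.13 (adjusted p = 0.0613) without the first and Shmt2 at -0.08 (adjusted p = 0.0757) without the second starved KO-labelled library. Psph passed at -0.10 (adjusted p = 0.0497) without the second starved WT library.

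Whether the starvation responses differed between the genotypes was tested as the difference of the log2 fold changes, KO-labelled minus WT. Of the 10 genes, 5 had a positive difference, 2 a negative one and 3 did not pass, where 34.1% of all genes tested were called higher and 30.4% lower (64.5% in all). The median difference was 0.13, against 0.10 for all genes. Aldh1l2 stood furthest out at 1.27 ± 0.050 (adjusted p = 9.19e-15), followed by Psph at 0.64 ± 0.063 (adjusted p = 1.80e-08) and Shmt2 at 0.51 ± 0.042 (adjusted p = 8.62e-10). Each of these 3 was lower in fed KO-labelled than in fed WT cells and came closer to WT on starvation. Psat1 at 0.24 ± 0.039 and Phgdh at 0.19 ± 0.040 passed by less. Without the first starved WT library Phgdh was at 0.04 (adjusted p = 0.403), without the second at 0.08 (adjusted p = 0.0943), and with DESeq2 at 0.09 (adjusted p = 0.0616). Psat1 was at 0.09 (adjusted p = 0.0542) without the second starved WT library.

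Mthfd1 had the smaller rise in KO-labelled cells, with a difference of -0.41 ± 0.050 (adjusted p = 3.55e-07). Mthfd2l had the deeper fall there, -0.39 ± 0.16 (adjusted p = 0.0363). The call of Mthfd2l was lost with library totals, with transcripts summed, and without any of 3 single libraries: the first fed WT, the first fed KO-labelled and the second starved KO-labelled library, at -0.34 to -0.32. For Mthfd2, whose level differed 2.06-fold between genotypes both fed and starved, the responses differed by 0.00, with a 95% interval of -0.10 to 0.10 from the combined errors of the pair of fold changes. For Mthfd1l the difference was 0.00 (adjusted p = 0.995, 95% interval -0.13 to 0.13) and for Shmt1 0.08 (adjusted p = 0.369, -0.08 to 0.24). With library totals these 3 passed, at 0.20, 0.20 and 0.28, the all-gene median shifted by 0.20, and the share of higher calls was 67% against 52.9%. Leaving out a starved WT library moved the difference for Mthfd2 from 0.00 to -0.13 without the first and -0.13 without the second. Both lie outside its interval of -0.10 to 0.10. The difference for Mthfd1l moved from 0.00 to -0.18 without the first, outside its interval of -0.13 to 0.13. In both of these fits the calls of this difference over all genes tested also turned, to more lower than higher.

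Genes with a pattern like that of a member were found by the Euclidean distance between log2 CPM values, centred per gene, over the 8 libraries. Nearest to Phgdh lay Nt5dc3 (0.165), Utp15, a ribosome biogenesis factor (0.193), and Slc6a8, the creatine transporter (0.207). Among the 10, the pair Phgdh and Shmt1 lay closest, at 0.249, followed by Psat1 and Mthfd1l at 0.340. Mthfd1 had closer neighbours outside the pathway, Eif3b, a translation initiation factor subunit (0.0898), Clta, a clathrin light chain (0.0971), and Pkn2, a protein kinase (0.110). Nothing lay as close to Mthfd2, whose nearest were Dgkh, a diacylglycerol kinase (0.592), 1810032O08Rik (0.616) and Flcn, folliculin (0.633). Its nearest member was Aldh1l2, at 0.926. Mthfd2l lay at least 2.85 from each of the other 9.

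The rest of the pathway was described from 8 lists of 54 genes, of which 47 were tested. In WT starvation 27 rose, 15 fell and 5 did not pass, and in KO-labelled starvation 29 rose, 14 fell and 4 did not pass, where 36.7% of all genes tested were called higher and 44.8% lower in WT, and 39.4% and 40.3% in KO-labelled cells. With library totals 18 rose and 23 fell in WT, where 3397 of all 14418 genes tested were called higher and 8629 lower. The list medians for all 47, 0.29 in WT and 0.59 in KO-labelled cells, lay below those of the 10 enzymes. The largest rises of the 47 were those of Cth and Slc6a9. Cth, the enzyme that makes cysteine from cystathionine, rose by 3.34 ± 0.071 in WT and 4.13 ± 0.073 in KO-labelled cells on the log2 scale. Slc6a9, a glycine transporter, rose by 3.34 ± 0.040 and 3.86 ± 0.041. Atf4 rose by 1.98 ± 0.028 and 1.94 ± 0.028, and the difference of its responses did not pass with TMM (-0.05, adjusted p = 0.293). With library totals that difference passed at 0.15 (adjusted p = 0.00182), where the all-gene median of the differences shifted by 0.20.

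Purine synthesis genes that use formyl folate or neighbour those steps rose for 5 of 6 tested in WT and 5 of 6 in KO-labelled cells. The largest rise was that of Atic, which uses formyl folate in the last steps, at 1.63 ± 0.033 and 0.74 ± 0.032, and Paics fell by 0.13 ± 0.029 on the log2 scale in KO-labelled cells. Paics was called higher in WT (0.29) with TMM and lower with library totals, under which 4 rose and 2 fell in WT. Of 9 tested genes of serine and glycine transport and use, 7 rose and 1 fell in WT, and 6 rose and 2 fell in KO-labelled cells. With library totals 3 rose and 3 fell in WT, and Slc1a5 and Srr turned to lower. The mitochondrial serine carrier gene Sfxn1 fell by 0.36 ± 0.046 in WT, and Slc38a2, a neutral amino acid transporter, fell by 1.08 ± 0.031 in KO-labelled cells. All 5 regulators rose in WT with TMM, and in KO-labelled cells 4 rose and Ehmt2, a histone H3K9 methyltransferase gene, fell by 0.38 ± 0.031. With library totals 4 rose in WT, where Ehmt2 was at -0.03 (adjusted p = 0.4), and 3 rose in KO-labelled cells, where Nfe2l2 was at -0.02 (adjusted p = 0.586).

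The methionine cycle list includes Ahcyl1 and Ahcyl2, relatives of Ahcy. In this list 4 of 8 tested rose and 2 fell in WT, and 5 rose and 2 fell in KO-labelled cells. With library totals 3 rose and 4 fell in WT, with Mtr turned to lower (-0.21) and Mat2b called lower (-0.54), and 4 rose and 2 fell in KO-labelled cells. The extremes of the list were Ahcyl2 at 1.77 ± 0.057 and Mat2a, which makes S-adenosylmethionine, at -1.06 ± 0.039 in WT. In KO-labelled cells they were Mtrr, the reductase that keeps methionine synthase active, at 1.62 ± 0.052 and Mat2b at -0.85 ± 0.047. Of the other folate enzymes, 5 of 7 fell in WT and 4 of 7 in KO-labelled cells, the same numbers as with library totals. Of these, Mtfmt, which formylates the mitochondrial initiator tRNA, was highest in WT at 0.68 ± 0.10 and Mthfsd in KO-labelled cells at 0.71 ± 0.075. Folate uptake and retention had 1 rise and 4 falls of 6 in WT and 3 rises and 2 falls in KO-labelled cells, and with library totals 5 falls in WT and 3 in KO-labelled cells. Slc19a1, the reduced folate carrier, rose by 0.90 ± 0.055 in WT and 1.55 ± 0.056 in KO-labelled cells.

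Glycine cleavage, which yields a one-carbon unit from glycine in mitochondria, had 2 rises and 2 falls of 4 in WT with TMM, and 2 rises and 1 fall in KO-labelled cells. With library totals WT had 1 rise and 3 falls, Gcsh turning from 0.26 to -0.20. Dld, the subunit shared with other dehydrogenase complexes, rose by 1.24 ± 0.041 in WT, and Gcsh, the lipoyl carrier, rose by 0.70 ± 0.051 in KO-labelled cells. Gldc, the decarboxylase, had 220 and 182 counts in fed WT and 29 and 24 in starved WT, and 17 and 10 in fed and 0 and 4 in starved KO-labelled libraries. Other falls were also of sparse genes. Folr2, a folate receptor gene, had 19 and 31 counts in fed and 0 in both starved WT libraries, at least 6.46-fold lower against a floor of 3 counts per library. Folr2 had 21 and 35 counts in fed and 8 and 7 in starved KO-labelled libraries. Aldh1l1, the cytosolic counterpart of Aldh1l2, had 11 and 13 counts in fed and 0 and 2 in starved WT, and 44 and 40 in fed and 8 and 8 in starved KO-labelled libraries. Cbs had 129 and 82 counts in fed and 29 and 40 in starved WT, and 147 and 108 in fed and 38 and 32 in starved KO-labelled libraries. The 2 formyl-folate dehydrogenase genes thus moved in opposite directions on starvation, Aldh1l2 up and Aldh1l1 down in both genotypes, but the fall of Aldh1l1 in WT was lost without the first starved WT library (adjusted p = 0.0944). In KO-labelled cells the fall of Gldc was lost without the first starved library (adjusted p = 0.0643). The fall of Folr2 there was lost without the second fed (adjusted p = 0.228), the first starved (0.0544) or the second starved library (0.117).

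**Figure D4:**
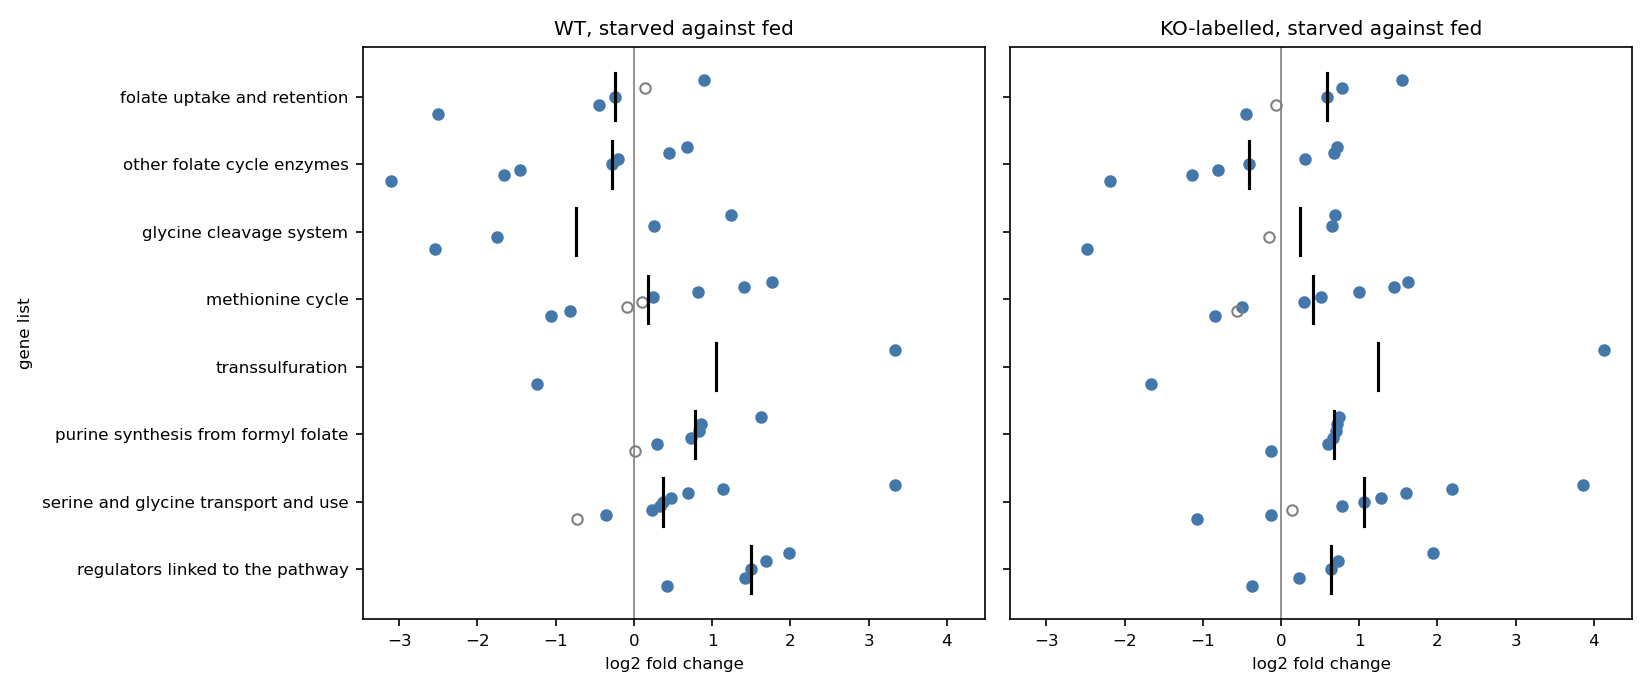
Log2 fold change of the other tested pathway genes on starvation in WT (left) and KO-labelled cells (right), by list. Filled points passed the test, open points did not, and black bars are medians of the genes drawn, without Folr2, which had 0 counts in starved WT. Cth and Slc6a9 lie furthest right in both panels, at 3.34 each in WT and at 4.13 and 3.86 in KO-labelled cells.

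Between genotypes the other genes were mixed. When fed, 9 of 47 were higher and 27 lower in KO-labelled cells, against 34.5% higher and 39.8% lower of all genes tested. The gene of each list that was highest and the one that was lowest among those called were Slc19a1 (-0.82) for uptake, Aldh1l1 (1.40) and Mthfsd (-0.70) for other folate enzymes, and Dld (0.13) and Gldc (-4.28) for glycine cleavage. They were Mat2b (0.52) and Mat2a (-0.46) for the methionine cycle, Cth (-0.77) for transsulfuration and Atic (0.22) and Adsl (-0.65) for purine synthesis. They were Sdsl (1.66) and Slc38a1 (-2.23) for transport and use, and Nfe2l2 (0.78) and Myc (-0.62) for regulators. Among these, Aldh1l1 was not called without any 1 of the 4 fed libraries (adjusted p = 0.0799 to 0.139). Dld was not called without the second fed WT (adjusted p = 0.0837) or the first fed KO-labelled library (0.151), nor Sdsl without the second fed KO-labelled library (0.152). When starved, 14 were higher and 25 lower, against 41.9% and 37.7% of all genes tested. With library totals 23 were higher, as were 7817 of all 14418 genes tested. With a filter of at least 5 CPM in 2 libraries, which tested fewer of the 47, 9 were higher, as were 4682 of all 11190 genes tested. Among the 47, all 5 regulators were lower, Myc the most at -1.57 ± 0.043. Slc38a2 was at -1.53 ± 0.031, Adsl at -0.78 ± 0.041 and Ahcy at -0.68 ± 0.030. Gldc, with 29 and 24 counts in starved WT and 0 and 4 in starved KO-labelled libraries, was at -4.22 ± 0.65, at -3.37 without the first and at -8.16 without the second starved KO-labelled library, a fitted value against 0 counts. Mthfsd was at 1.46 ± 0.085, Mtr, methionine synthase, at 1.26 ± 0.052, Gart at 0.47 ± 0.039, Amt at 0.82 ± 0.33 and Sdsl, with 4 to 54 counts in these libraries, at 2.53 ± 0.57. Amt was not called without the first starved WT (adjusted p = 0.284) or the second starved KO-labelled library (0.362). Folr2 was at least 1.69-fold higher against the floor, and was not called without the second starved WT library (adjusted p = 0.0509). Slc19a1 was at -0.16 ± 0.052, and at 0.15 with library totals.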

How the data were processed

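RNA counts of 8 MEF libraries were compared, 2 per group. The authors deposited raw, whole-number read counts per RefSeq transcript (31055 transcripts, 23366 symbols). Of tools and builds, TopHat2 2.0.9, bedtools and mm9 are listed, without roles, per the submitters' processing notes. The sources used here give neither strandedness nor the handling of reads with several matches. Another 4 columns of per-sample values could not be matched to a label and were left out. Each symbol was represented by its transcript with the highest total over the 8 libraries, and counts of replicates differed by more than sampling noise (chi-square per degree of freedom 3.37 to 6.21).

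The quasi-likelihood test of edgeR 4.0.16 (R 4.3.3, limma 3.58.1) was run on 14418 genes kept by filterByExpr, with TMM scaling, a coefficient for each group, 4 residual degrees of freedom and a Benjamini-Hochberg threshold of 0.05. The SE was derived from the test by dividing the size of the log2 fold change by the root of the F statistic. The common biological coefficient of variation was 0.0341. Ratios of counts within a library were compared by exact permutation. Alternatives were DESeq2 1.42.0, library totals, no filter or at least 5 CPM in 2 libraries, transcripts summed per symbol, the replicate number as a block, only the groups compared, and leaving out each library.

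The 10 genes and the gene lists were chosen with earlier results of these data known. All 10 are named in each comparison. From the other lists, the called genes with the largest rise and the largest fall are named in each starvation and label comparison, and the 3 genes nearest in pattern are named for Phgdh, Mthfd2 and Mthfd1. The value of 1 gene that this rule names is not reported here. Genes described as lost, turned or sparse were singled out after their values were seen.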

Additional observations from a re-analysis of the deposited data

Results flagged for a closer look

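The starvation response differed between the genotypes, by edgeR's test of the difference itself, for 7 of the 10 genes, where 64.5% of all genes tested were called. Differences are log2, KO-labelled minus WT. The response of Phgdh differed by 0.19. The response of Psat1 differed by 0.24. The response of Psph differed by 0.64, and its starved libraries overlapped between genotypes. Shmt2 differed by 0.51, with a ratio to Shmt1 that was lowest in the fed KO-labelled libraries. Mthfd1 differed by -0.41, the smaller rise being in KO-labelled cells. Mthfd2l differed by -0.39, from 196 to 943 counts per library. Aldh1l2 differed by 1.27, having been 2.94-fold lower in KO-labelled than in WT cells when fed and 1.22-fold lower when starved.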

How the results depend on the processing

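With 2 libraries a group the precision rests on few samples, and the depth limits Mthfd2l and the sparse list genes most. The starvation calls of the 9 genes that rose held their direction and their call under each alternative run, while Mthfd2l in WT was not called lower without the second starved WT library. The scaling moved the other comparisons most. With library totals, 4 of the 10 were called higher and 5 lower between starved genotypes, where 7817 of all 14418 genes tested were called higher and 3778 lower. Phgdh (0.10), Psph (0.29), Shmt1 (0.17), Shmt2 (0.22), Aldh1l2 (0.033) and Slc19a1 (0.15) turned direction. The differences of responses called were then 8 positive and 1 negative, where 6306 of all 14418 genes tested were called positive and 3099 negative. Of the other pathway genes, 23 were then lower in WT starvation, as were 8629 of all 14418 genes tested. Between starved genotypes 23 were then higher, as were 7817 of the 14418. With at least 5 CPM in 2 libraries, a filter that tests fewer genes, 9 were higher there, as were 4682 of all 11190 tested. Transcripts summed per symbol left 1 gene with a negative difference of responses, as had 4339 of all 14571 genes tested in that fit. Leaving out each library in turn gave 3 to 5 genes with a positive and 1 to 4 with a negative difference of responses, 0 to 1 called lower in WT starvation, and 8 to 10 called lower between starved genotypes. The differences for Mthfd1l (-0.18 without the first starved WT library) and Mthfd2 (-0.13 without the first and -0.13 without the second) then moved below 0. With all libraries both were 0.00, and their ranges over these fits were -0.18 to 0.050 and -0.13 to 0.044. In both fits that leave out a starved WT library, the calls of this difference over all genes tested also turned, to more lower than higher. The cause was not tested. Deviations of same-numbered libraries, taken over all genes tested, correlated at -0.02 to 0.01 over 6 pairs of groups. No pairing by replicate number was seen, but these correlations cannot exclude a pairing that touches few genes. The fit with the replicate block changed no call of the 10 genes, with 9 called higher and 1 lower in WT starvation as without it.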
